A study of Mus musculus with 7 samples.

Results

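The amyloid precursor protein gene App, its relatives Aplp1 and Aplp2, the signal-regulatory ligand gene Cd47 and the saposin precursor gene Psap were followed as 5 genes of 23465 in the gene table, and as 41 of the 69994 transcripts in the transcript table. They were matched by symbol and joined to GENCODE M21 transcripts, on mouse build GRCm38, where the genes are App at chr16:84949685-85173766, Aplp1 at chr7:30434982-30445535, Aplp2 at chr9:31149557-31211815, Cd47 at chr16:49800533-49915010 and Psap at chr10:60277627-60302597. The 5 genes were chosen by their transcript shares and levels across the cell types of these same libraries, so their levels and exon shares are given here as a description, with no test. The study profiled single cells of mouse islets of Langerhans, and its 7 samples fall in 4 groups by library protocol. The 2 libraries used here, replicates 1 and 2, come from islets of female C57BL/6 mice aged 10 weeks, made with the 5' droplet assay in a modified form (extra dNTP and longer extension times), depleted of insulin cDNA with a Cas9 guide panel and read on Nanopore. Nothing in the labels says that they came from separate animals, so the spread between them may be technical. The groups compared are the authors' cell types within each library: endothelial, stellate and macrophage cells, set against the endocrine alpha, delta, PP and beta cells, and alpha, delta and PP cells set against beta cells. Where 2 values of a cell type or cluster are joined by "and", they belong to replicate 1 and replicate 2.

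App and its relatives are membrane proteins that are cut at the cell surface by alpha-secretase (Adam10) or in endosomes by beta-secretase (Bace1), and then within the membrane by the gamma-secretase complex. App and Aplp2, but not Aplp1, can carry a Kunitz domain, a small inhibitor of serine proteases coded by a single exon, and nerve cells are known for App without it. In App another optional exon codes a stretch related to the OX2 antigen, and skipping of a further one creates an attachment site for chondroitin sulphate. Cd47 is the "don't eat me" ligand read by Sirpa on phagocytes and a receptor for thrombospondin, and small exons near its end set the length of its cytoplasmic tail. Psap codes prosaposin, which is cut in lysosomes into 4 saposins that help enzymes break down sphingolipids, and a very short optional exon lies in the part coding saposin B. Islet endothelial cells line the capillaries, stellate cells are their pericyte-type neighbours, and beta, alpha, delta and PP cells secrete insulin, glucagon, somatostatin and pancreatic polypeptide.

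The exons that carry the comparisons are shown here as read from the GENCODE M21 transcripts, 5′ to 3′. The Kunitz exons of App (chr16:85043576-85043743, minus strand, exon 7 of App-206) and Aplp2 (chr9:31167561-31167728, minus strand, exon 7 of Aplp2-201) have the same length of 168 bases and share 114 of them (67.9%). Capitals mark the bases at which the pair differ.
App Kunitz exon: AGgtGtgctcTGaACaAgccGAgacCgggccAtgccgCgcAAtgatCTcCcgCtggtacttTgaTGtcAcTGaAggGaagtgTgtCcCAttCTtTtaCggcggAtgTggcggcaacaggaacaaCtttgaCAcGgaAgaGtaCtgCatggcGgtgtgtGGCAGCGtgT
Aplp2 Kunitz exon: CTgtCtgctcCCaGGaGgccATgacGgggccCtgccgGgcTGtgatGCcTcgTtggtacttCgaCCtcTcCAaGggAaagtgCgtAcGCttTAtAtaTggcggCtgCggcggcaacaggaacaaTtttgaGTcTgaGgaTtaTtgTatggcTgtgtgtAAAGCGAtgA

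The other optional exons of App are in capitals between 15 bases of each neighbouring exon. The 57-base exon (chr16:85040251-85040307, exon 8 of App-206) codes the OX2-related stretch, and the 54-base exon (chr16:84971408-84971461, exon 15 of App-206) lies near the membrane-side end of the coding region. Both are coding and keep the reading frame.
App 57-base exon: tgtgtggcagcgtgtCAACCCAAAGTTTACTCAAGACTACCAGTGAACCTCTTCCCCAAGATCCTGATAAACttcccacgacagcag
App 54-base exon: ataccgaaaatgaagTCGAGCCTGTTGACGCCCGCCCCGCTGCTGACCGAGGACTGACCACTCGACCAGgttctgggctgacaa

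The 9-base exon of Psap (chr10:60297537-60297545, plus strand, exon 8 of Psap-205) is shown in the same way. It adds 3 codons.
Psap 9-base exon: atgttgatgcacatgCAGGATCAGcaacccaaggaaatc

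For Cd47, the 4 tails run from the last exon common to these forms, in lower case, through the coding bases that follow it, in capitals, to the stop codon. They use no small exon (Cd47-201), a 25-base exon (Cd47-203, chr16:49908054-49908078), that exon with a 33-base exon (Cd47-205, chr16:49908703-49908735), or a 29-base version of the first (Cd47-207, chr16:49908054-49908082). The added coding sequence is 6, 27, 60 and 30 bases long.
Cd47-201 tail: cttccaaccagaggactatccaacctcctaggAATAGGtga
Cd47-203 tail: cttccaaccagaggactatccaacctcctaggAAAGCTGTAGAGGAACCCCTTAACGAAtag
Cd47-205 tail: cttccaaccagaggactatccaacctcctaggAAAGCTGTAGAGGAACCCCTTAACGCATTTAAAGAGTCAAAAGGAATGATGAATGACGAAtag
Cd47-207 tail: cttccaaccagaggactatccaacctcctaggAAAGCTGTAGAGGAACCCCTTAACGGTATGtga

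The 2 libraries held 11012364 and 12092393 UMIs (unique molecular identifiers, each counting 1 captured molecule) over 4814 and 1093 cells, with a median of 2110 and 9949 UMIs per cell, and 5 barcodes occurred in both. The types compared had 141 and 26 endothelial, 118 and 27 stellate, 62 and 7 macrophage, 961 and 239 alpha, 965 and 318 delta, 283 and 41 PP and 2284 and 435 beta cells. Marker sums did not match the name everywhere. A narrower choice of clusters, picked with earlier results known and called own-marker clusters here, kept cluster 3 of the delta class (435 and 157 cells), clusters 0, 2 and 4 of the beta class (1969 and 379 cells), cluster 11 of the endothelial class and all cells of the other types. In stellate cells the alpha markers summed to 17108 and 17353 CPM (counts per 1000000 UMIs of the sum), above the stellate markers in replicate 2 (20757 and 8969 CPM). The whole delta class carried beta markers at 51478 and 44970 CPM and PP markers at 40255 and 57584 CPM, against delta markers at 99248 and 73050 CPM. Of the cells named endothelial, 12 and 16 form cluster 15, whose duct markers summed to 24096 and 20816 CPM while its endothelial markers summed to 53.5 and 58.7 CPM, against 22374 and 19990.0 CPM of endothelial markers in cluster 11 with the other 129 and 10 cells. In replicate 2 the duct-marker cells gave 69.9% of the endothelial App UMIs, 77.9% of Aplp2, 79.1% of Cd47 and 72.3% of Psap. In replicate 1 they gave 11.7, 9.65, 19.3 and 17.2% in that order. Of the cells named delta, 7 and 7 form cluster 16, whose neuron markers summed to 28862 and 23083 CPM while its delta markers summed to 0 and 50.05 CPM, and it is called neuron-like here. Results that rest on either cluster are given with and without it. Hormone RNA was found in every type: Iapp, the amylin gene of beta cells, stood at 3485 and 971 CPM in endothelial, 7367 and 5311 CPM in stellate and 14735 and 3678 CPM in macrophage cells, against 118545 and 99038 CPM in beta cells. Its part in the results below was not tested.

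The transcript table holds only part of each gene's UMIs: 22.5 and 26.6% for App, 74.2 and 65.1% for Aplp1, 29.4 and 26.9% for Aplp2, 86.2 and 89.05% for Cd47 and 36.3 and 37.2% for Psap, against 86.4 and 89.4% over all genes. Exon shares therefore describe the molecules that could be placed on an annotated transcript. The part placed also differed between types: for Psap it was 34.7 and 28.4% in beta, 56.2 and 61.8% in PP and 26.0 and 38.7% in alpha cells. For App it was 39.5 and 59.4% in the neuron-like cluster, against 19.9 and 28.9% in the whole delta class. What these differences do to the shares was not tested. An exon's share is the number of UMIs on transcripts that contain it over these plus the UMIs on transcripts that join exons on both sides of it. Transcripts with an overlapping version of the exon are left out, so the 25-base and 29-base exons of Cd47 are each counted without the other. Intervals are 95% exact (Clopper-Pearson for shares) and cover counting error only. For a share of 0 the limit given instead is that of 3 UMIs of the total.

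App was highest in the endothelial class, at 1435 and 939.8 CPM, followed by stellate cells at 522 and 302 CPM. The delta class had 352 and 304 CPM, alpha cells 180.5 and 140.5 CPM, PP cells 127 and 116 CPM and beta cells 122 and 123 CPM. Endothelial cells thus stood above every other type in both libraries, stellate and delta cells overlapped, and so did PP and beta cells. Macrophages had 137 and 16.1 CPM, which rest on 15 and 1 UMIs. Within the endothelial class the cluster led by endothelial markers had 1544 and 1567 CPM and the duct-marker cluster 936 and 802 CPM, both above all endocrine types. The delta class had 346 and 289 CPM without the neuron-like cluster, which itself had 508 and 511 CPM.

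Aplp2 shared this order at its upper end, with 549 and 371 CPM in endothelial and 299.6 and 292 CPM in stellate cells. It stood at 605 and 454 CPM in cluster 11 and at 294 and 352 CPM in the duct-marker cluster, which overlapped stellate cells. In endocrine cells it was lower, at 119 and 68.3 CPM in alpha, 101 and 73.4 CPM in delta, 62.3 and 37.6 CPM in PP and 47.04 and 39.4 CPM in beta cells. The alpha and delta ranges overlapped, as did PP and beta. Aplp1, the relative known as the more neuronal of the family, ran the other way. It had 67.4 and 14.2 CPM in endothelial, 69.1 and 111 CPM in stellate and 101 and 16.1 CPM in macrophage cells, against 1064 and 889 CPM in alpha, 746 and 566 CPM in delta, 841 and 811 CPM in PP and 564 and 396 CPM in beta cells. Among the endocrine types alpha cells were highest, then PP, delta and beta cells, with no overlap between neighbours. The endothelial values rest on 14 and 5 UMIs. Endocrine and non-endocrine ranges of Aplp1 did not overlap.

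Cd47 was again highest in the endothelial class, at 525 and 461 CPM, and similar in its clusters 11 (517 and 533 CPM) and 15 (562 and 446 CPM). Stellate cells had 384 and 232 CPM, delta cells 236 and 199.6 CPM and PP cells 208 and 206 CPM. Stellate cells overlapped delta cells, delta cells overlapped PP cells, and PP cells stood apart from beta cells. Beta cells had 182 and 155 CPM, alpha cells 131 and 140.0 CPM and macrophages 146 and 96.8 CPM. Psap was highest in macrophages, the professional degraders of the islet, at 3048 and 3549 CPM. Next came beta cells at 939 and 889.9 CPM and stellate cells at 906 and 816 CPM, which overlapped, then delta cells at 644 and 649.8 CPM. PP cells at 492 and 569 CPM and endothelial cells at 616 and 419 CPM overlapped, and alpha cells were lowest at 292 and 399.5 CPM. Endothelial cluster 11 alone had 622 and 642 CPM, above PP cells in both libraries, and the duct-marker cluster 588 and 370 CPM. Some of these orders depended on scaling: with totals scaled by TMM (a factor that keeps a few very abundant genes, such as hormones, from setting the total), Cd47 averaged 168 ± 5.11 in alpha and 156 ± 17.6 CPM in beta cells, Cd47 254 ± 0.874 in PP and 206 ± 10.9 CPM in delta cells, App 149 ± 8.95 in PP and 113 ± 0.900 CPM in beta cells, and Psap 651 ± 68.4 in PP and 615 ± 44.8 CPM in delta cells (SD, n = 2). Psap of alpha cells, at 428 ± 87.9 CPM, then overlapped that of endothelial cells, at 437 ± 93.5 CPM.

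**Figure D1:**
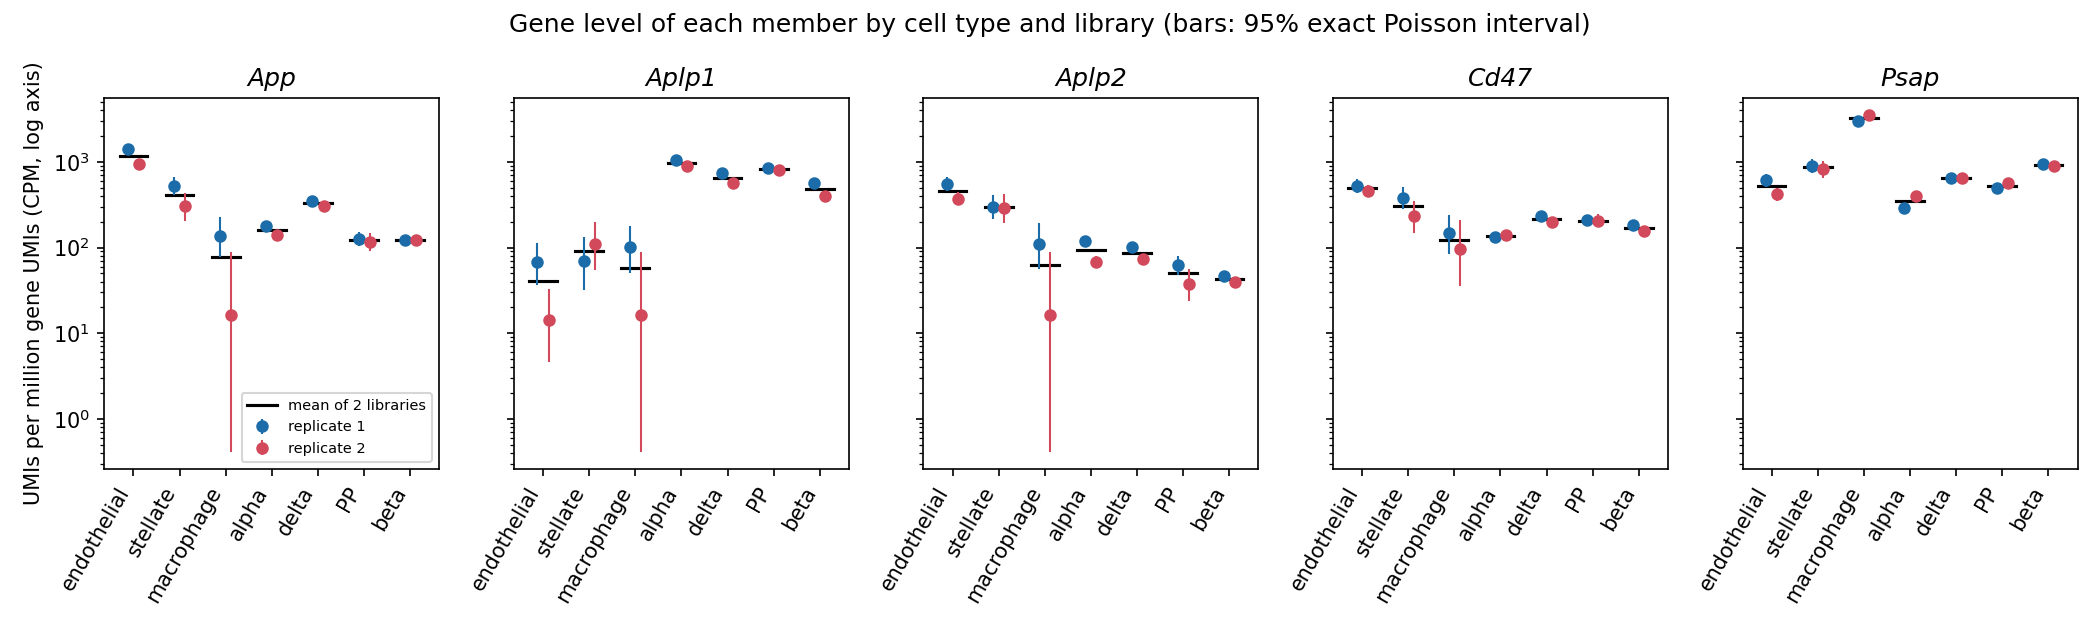
Gene level of App, Aplp1, Aplp2, Cd47 and Psap (CPM, logarithmic axis) by cell type, with a point per library, its 95% exact Poisson interval and a black line at the mean of both. App, Aplp2 and Cd47 are highest in endothelial cells, Aplp1 is higher in all 4 endocrine types than in the other types, and Psap is highest in macrophages at 3298 ± 354 CPM (SD, n = 2).

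The Kunitz exon was in most spanning App UMIs of each type with at least 20 cells per library, and most often in endothelial and stellate cells. For PP cells of replicate 2 the interval of 31.3 to 72.2% leaves a majority uncertain. Endothelial cells included it in 71 of 81 UMIs (87.7%, interval 78.5 to 93.9%) and 88 of 95 UMIs (92.6%, interval 85.4 to 96.99%). Stellate cells included it in 19 of 21 UMIs (90.5%) and 10 of 10 UMIs (100%), and macrophages had only 5 and 1 UMIs that span it. The endocrine types were lower, with 41 of 61 UMIs (67.2%) and 57 of 80 UMIs (71.2%) in alpha, 99 of 156 UMIs (63.5%) and 223 of 369 UMIs (60.4%) in the delta class, 20 of 33 UMIs (60.6%) and 13 of 25 UMIs (52%) in PP and 103 of 141 UMIs (73.05%, interval 64.9 to 80.2%) and 71 of 90 UMIs (78.9%, interval 69.01 to 86.8%) in beta cells. The endothelial share exceeded the mean of the endocrine types by 24.3 ± 3.83 percentage points (SD over n = 2 libraries). Cluster 11 alone had 70 of 80 UMIs (87.5%) and 28 of 32 UMIs (87.5%), and the duct-marker cluster had 60 of 63 UMIs (95.2%) in replicate 2, with a single UMI in replicate 1. Not every endocrine cluster was lower: cluster 7 of the delta class had 13 of 14 UMIs (92.9%) and 11 of 12 UMIs (91.7%). Cluster 4 of the beta class had 21 of 26 UMIs (80.8%) and 7 of 8 UMIs (87.5%).

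The 54-base exon went the opposite way, so that endothelial and stellate App had the Kunitz exon more often, and the exon near the membrane less often, than App of the endocrine types. Endothelial cells included the 54-base exon in 27 of 81 UMIs (33.3%) and 44 of 95 UMIs (46.3%), and stellate cells in 7 of 21 UMIs (33.3%) and 3 of 10 UMIs (30%). Cluster 11 alone had 27 of 80 UMIs (33.75%) and 11 of 32 UMIs (34.4%), and the duct-marker cluster 33 of 63 UMIs (52.4%) in replicate 2. In alpha cells the 54-base exon was in 66.7 and 79.7% of spanning UMIs, in delta cells in 71.2 and 75.96% and in PP cells in 69.7 and 76%. Beta cells, at 53.2 and 55.6%, lay between these and the endothelial class in both libraries. Beta clusters differed, with 8 of 20 UMIs (40%) and 5 of 15 UMIs (33.3%) in cluster 2. Cluster 5, also named beta, had 22 of 31 UMIs (71.0%) and 16 of 26 UMIs (61.5%). Cluster 7 of the delta class had 6 of 15 UMIs (40%) and 5 of 11 UMIs (45.5%). The 57-base exon was in 33.3 and 40% of UMIs in endothelial, 33.3 and 40% in stellate, 39.3 and 35% in alpha, 27.6 and 32.2% in delta, 21.2 and 16% in PP and 35.5 and 37.8% in beta cells. PP cells, with 7 of 33 and 4 of 25 UMIs, were below these other types in both libraries, and the neuron-like cluster had 2 of 17 UMIs (11.8%) and 3 of 85 UMIs (3.53%). Every annotated form with the 57-base exon also holds the Kunitz exon, so a low Kunitz share limits this share too. Cluster 11 had the 57-base exon in 27 of 80 UMIs (33.75%) and 17 of 32 UMIs (53.1%), and the duct-marker cluster in 21 of 63 UMIs (33.3%) in replicate 2.

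By whole transcripts, the most frequent form in the endothelial class was App-204 (733 codons, with the Kunitz exon and without the other optional exons), at 40.96 and 31.96% of App UMIs in the transcript table, against 21.2 and 19.4% in beta cells. Stellate cells had it at 40.9 and 40%. Duct-marker cells gave 2.41 and 67.0% of these endothelial App UMIs. In cluster 11 of replicate 2, 17 of 32 UMIs had the 57-base exon, which App-204 lacks. App-201 (695 codons), the form with neither the Kunitz nor the 57-base exon, was at 12.05 and 7.22% in endothelial, 30.8 and 28.05% in alpha, 35.4 and 38.7% in delta, 39.4 and 48% in PP and 25.2 and 19.4% in beta cells. App-206 (770 codons), which holds all 3 optional exons, made up 8.43 and 18.6% of endothelial and 9.93 and 13.3% of beta App. The annotation holds no transcript that spans and lacks both the Kunitz and the 54-base exon, so a molecule of that kind would not be counted as such. The shares of the optional App exons are therefore not independent of each other.

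**Figure D2:**
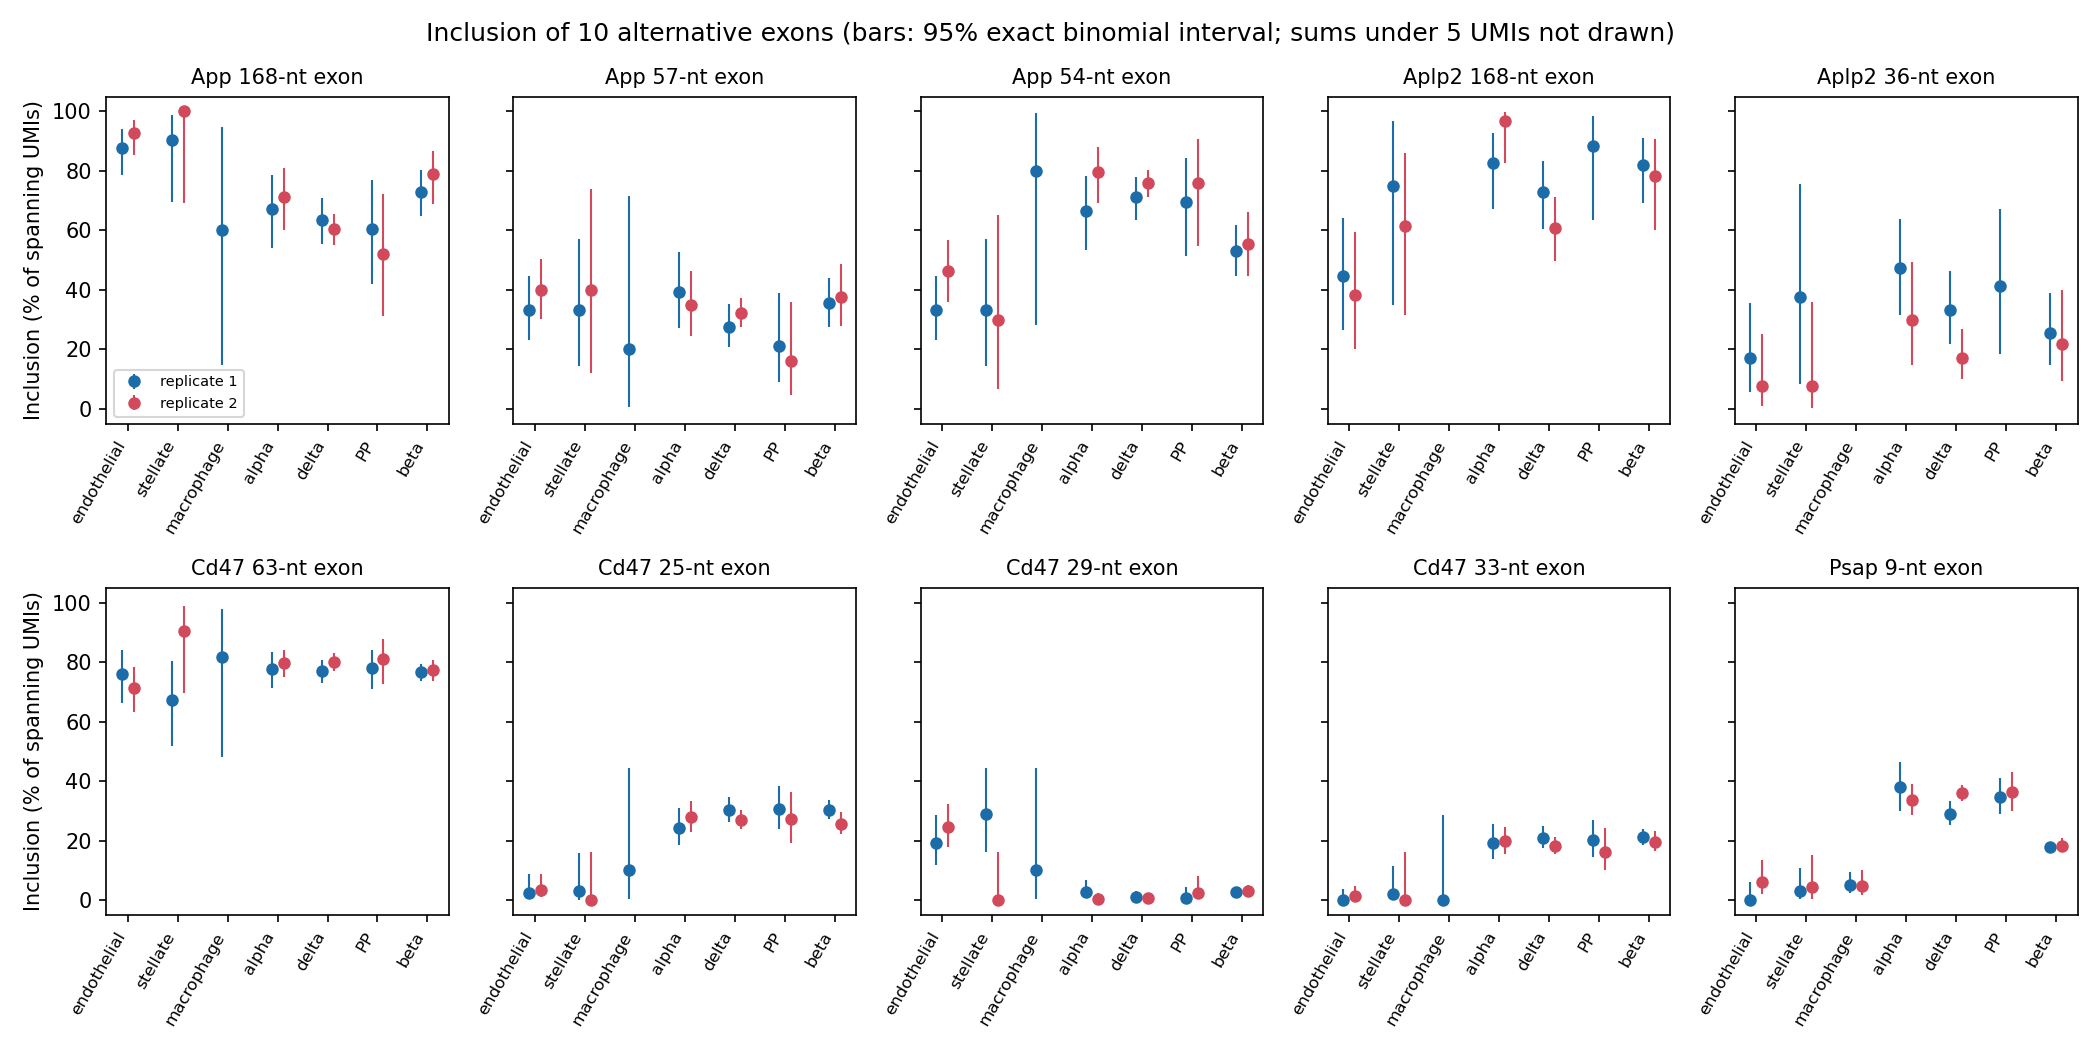
Inclusion of 10 optional exons of App, Aplp2, Cd47 and Psap (% of UMIs that span the exon) by cell type, with a point per library and its 95% exact binomial interval. The App 168-base exon is higher and the App 54-base, Aplp2 168-base, Cd47 25- and 33-base and Psap 9-base exons are lower in endothelial cells than in each endocrine type drawn, and Cd47's 63-base exon lies between 67.4 and 90.5% in the 6 types with at least 20 cells per library.

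The neuron-like cluster 16 set part of the delta class's App values. Its 7 and 7 cells included the Kunitz exon in 2 of 17 UMIs (11.8%, interval 1.46 to 36.4%) and 3 of 85 UMIs (3.53%, interval 0.734 to 9.97%), the lowest share of any cluster with 5 or more spanning UMIs. They included the 54-base exon in all of 17 and 85 UMIs. App-201, the only annotated form that spans and lacks the Kunitz exon, holds the 54-base exon, so these shares are coupled. App-201 accounted for 88.2 and 96.5% of their App UMIs in the transcript table. Without this cluster the delta class included the Kunitz exon in 97 of 139 UMIs (69.8%) and 220 of 284 UMIs (77.5%), which overlapped the beta cells, and the 54-base exon in 67.6 and 68.7%, which remained above them. The cluster's cells came from both libraries and held 8.66 and 20.3% of the delta class's Aplp2 UMIs.

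The splicing regulators listed for this work, taken from textbook knowledge of alternative splicing, were compared between cluster 16 and all other endocrine cells as a description. Of 32 regulators, 14 were higher and 14 lower in cluster 16 with no overlap between libraries, against 20.8% of 17526 genes higher and 51.4% lower in the same sense. The following were chosen after their values were seen. Rbfox1, a regulator of neuronal and muscle exons, stood at 259.7 and 272 CPM against 1.24 and 0.885 CPM in the other endocrine cells. Elavl4, a neuronal RNA-binding protein, stood at 496 and 568 CPM against 63.5 and 65.2 CPM in the other endocrine cells, and Celf6 at 342 and 286 CPM against 16.6 and 16.7 CPM in the other endocrine cells. Ptbp1, a repressor of neuronal exons, stood at 11.8 and 10.7 CPM against 77.00 and 80.3 CPM in the other endocrine cells, on 1 and 3 UMIs, and its neuronal relative Ptbp2 at 94.4 and 82.2 CPM against 21.9 and 24.9 CPM in the other endocrine cells. Esrp1, the epithelial splicing regulator, had 0 and 1 UMIs in cluster 16, against 45.2 and 40.01 CPM in the other endocrine cells. Unlike Rbfox1, Elavl4 and Celf6, the listed Nova1 and Nova2 were lower in cluster 16. Nova1 stood at 0 and 7.15 CPM against 15.2 and 12.7 CPM in the other endocrine cells, on 0 and 2 UMIs. Nova2 stood at 0 and 10.7 CPM against 18.4 and 13.98 CPM in the other endocrine cells, on 0 and 3 UMIs. Celf2 was lower as well, and Srrm3 overlapped between the groups.

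**Figure D3:**
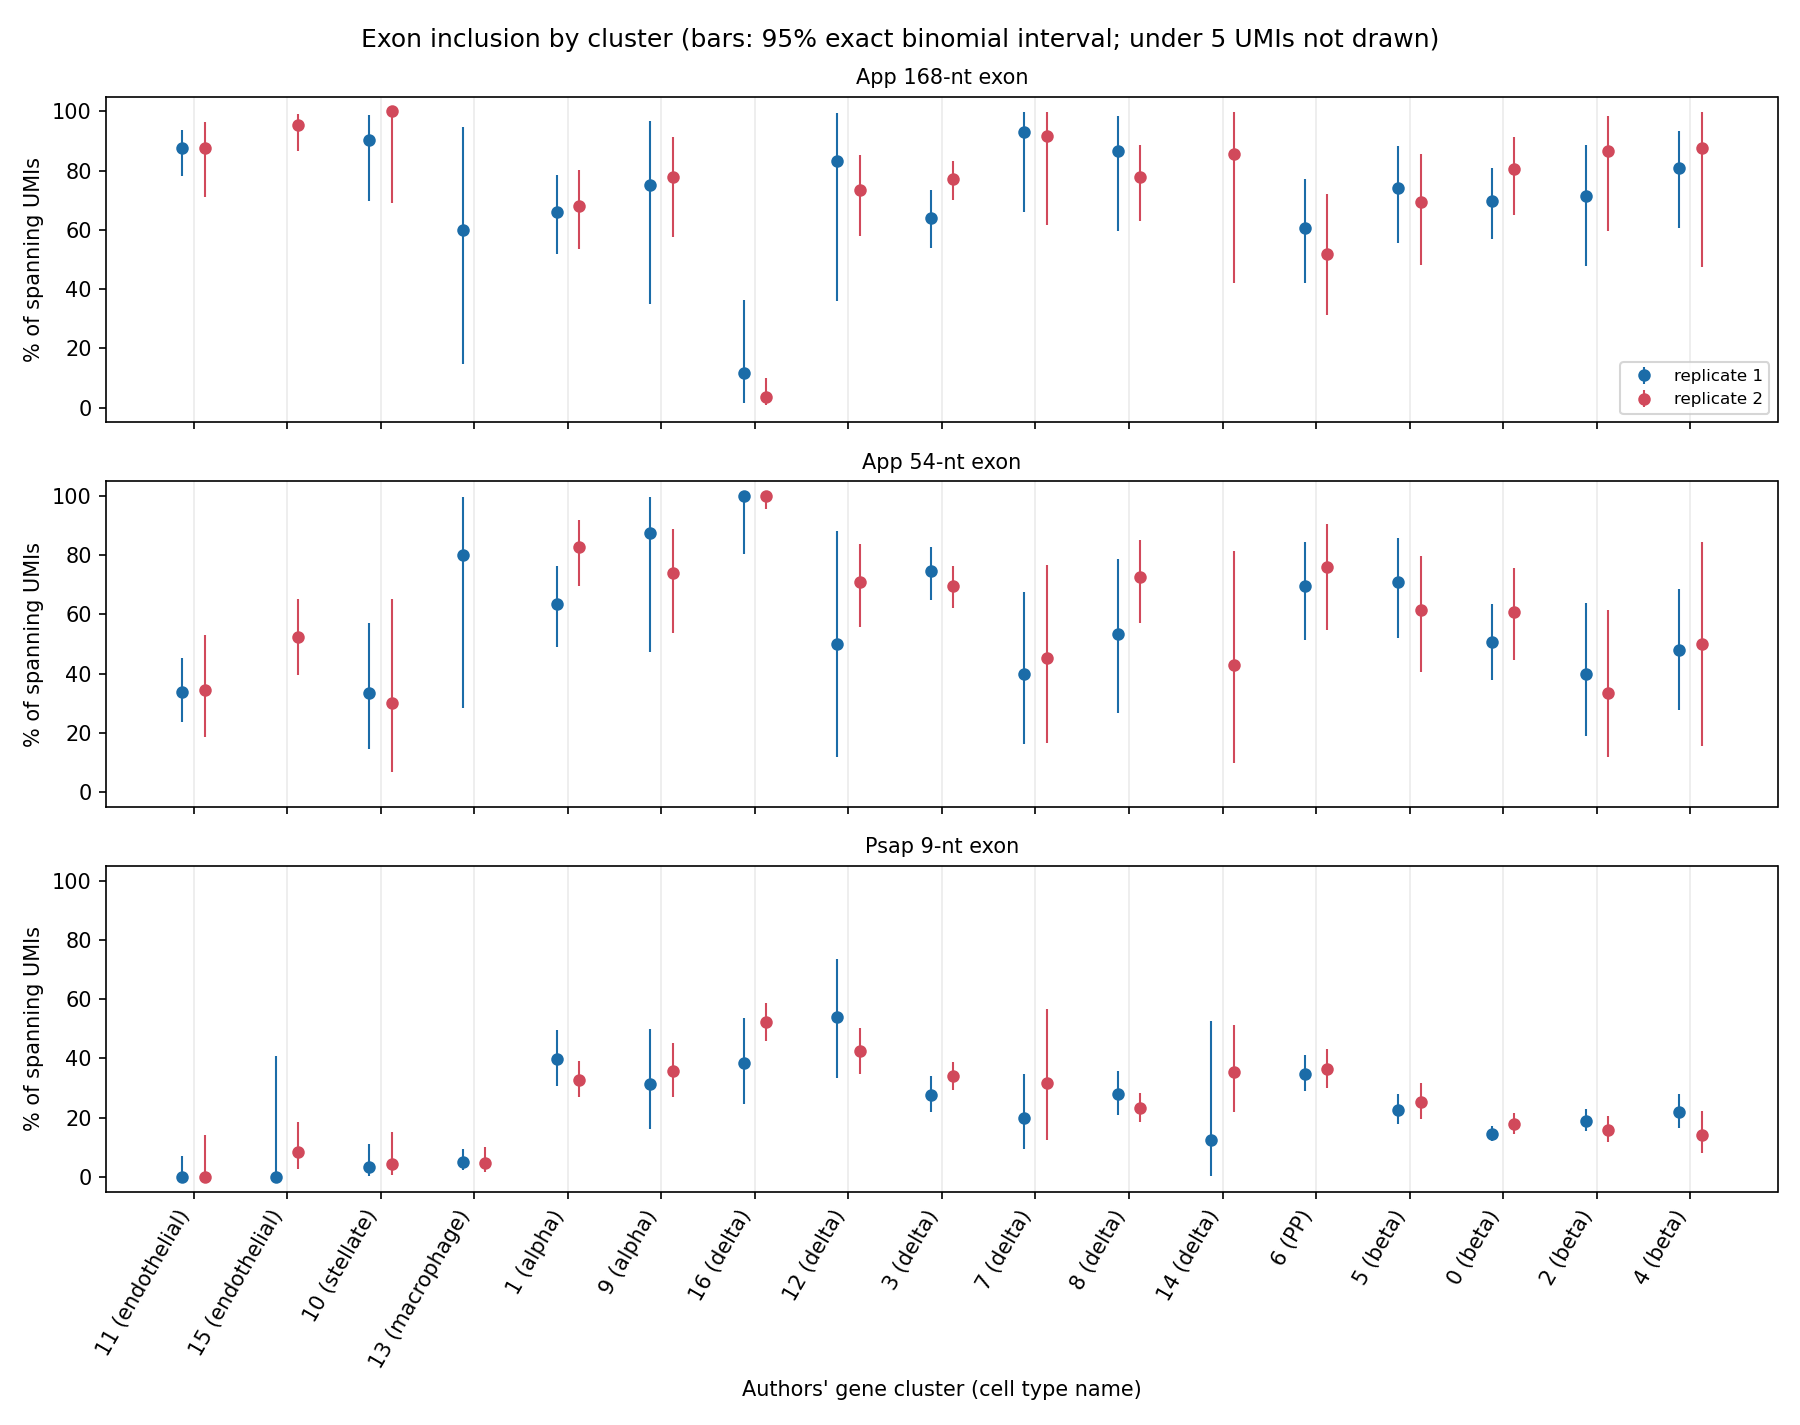
Inclusion of the App 168-base, App 54-base and Psap 9-base exons (% of spanning UMIs) in each of the authors' gene clusters, with a point per library and its 95% exact binomial interval, and the authors' cell type in parentheses. Cluster 16, named delta and carrying neuron markers, lies at 11.8 and 3.53% for the App 168-base exon while the other delta clusters with at least 5 spanning UMIs in that library lie between 64.1 and 92.9%.

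Aplp2 used its Kunitz exon in the opposite sense to App. Endothelial cells included it in 13 of 29 UMIs (44.8%, interval 26.4 to 64.3%) and 10 of 26 UMIs (38.5%, interval 20.2 to 59.4%), below alpha cells with 33 of 40 UMIs (82.5%) and 29 of 30 UMIs (96.7%) and beta cells with 45 of 55 UMIs (81.8%, interval 69.1 to 90.9%) and 25 of 32 UMIs (78.1%, interval 60.03 to 90.7%). The difference from the endocrine mean was -34.8 ± 2.54 percentage points (SD over n = 2 libraries), although PP cells contribute only 17 and 4 UMIs. Cluster 11 had 12 of 28 and 2 of 7 UMIs, and the duct-marker cluster 8 of 19 in replicate 2. Stellate cells had 6 of 8 UMIs (75%) and 8 of 13 UMIs (61.5%), with intervals that reach those of both groups.

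The delta class included the Aplp2 Kunitz exon in 46 of 63 UMIs (73.02%) and 53 of 87 UMIs (60.9%), and in 44 of 56 UMIs (78.6%) and 43 of 53 UMIs (81.1%) without the neuron-like cluster, which had 2 of 7 UMIs (28.6%) and 10 of 34 UMIs (29.4%). That cluster was therefore low for the Kunitz exon in both App and Aplp2. The form without either optional exon, Aplp2-209 (695 codons), made up 41.2 and 53.3% of endothelial and 10.96 and 11.9% of beta Aplp2 UMIs in the transcript table, while Aplp2-201 (751 codons, Kunitz only) made up 29.4 and 26.7% in endothelial and 45.2 and 47.6% in beta cells. The 36-base exon (chr9:31156190-31156225) was in 17.2 and 7.69% of UMIs in endothelial, 47.5 and 30% in alpha, 33.3 and 17.2% in delta and 25.5 and 21.9% in beta cells. PP cells had it in 7 of 17 UMIs (41.2%) and 0 of 4 UMIs (0%), where 0 of 4 allows a share of up to 75%. The endothelial values were below those of alpha and beta cells, and those of delta and PP cells did not stand apart from them. Aplp1 had 1 coding form, Aplp1-201 (654 codons), which made up 99.2 to 99.9% of its UMIs in each endocrine type and library.

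Cd47 forms differed between types in the tail. The form without a small exon, Cd47-201, was the most frequent everywhere, at 73.96 and 69.3% of Cd47 UMIs in endothelial, 73.1 and 71.9% in alpha and 67.1 and 71.4% in beta cells. The longest tail, Cd47-205, followed in endocrine cells, at 19.3 and 19.8% in alpha, 20.8 and 18.3% in delta, 20.2 and 16.4% in PP and 21.1 and 19.7% in beta cells, but was at 0 and 1.33% in endothelial and 2.17 and 0% in stellate cells. Endothelial cells instead had the shorter Cd47-207, at 17.7 and 24%, against 1.84 and 2.24% in beta cells.

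By exon, the 33-base exon of the longest tail was in 0 of 96 and 2 of 150 endothelial UMIs (0 and 1.33%), where 0 of 96 allows a share of up to 3.12%. Endocrine types included it in 16.4 to 21.1% of UMIs in each library. The 25-base exon was in 2 of 78 UMIs (2.56%) and 4 of 114 UMIs (3.51%) in endothelial cells and in 24.4 to 30.8% in the endocrine types. The 29-base version was in 18 of 94 UMIs (19.1%, interval 11.8 to 28.6%) and 36 of 146 UMIs (24.7%, interval 17.9 to 32.5%) in endothelial cells, against 17 of 610 UMIs (2.79%, interval 1.63 to 4.42%) and 13 of 434 UMIs (3.00%, interval 1.60 to 5.07%) in beta cells and at most 2.67% in the other endocrine types. Both endothelial clusters showed it in replicate 2, with 6 of 27 UMIs in cluster 11 and 30 of 119 in the duct-marker cluster, and in replicate 1 cluster 11 had 17 of 76 and the duct-marker cluster 1 of 18. Stellate cells did not settle between libraries, with 13 of 45 UMIs (28.9%) and 0 of 21 UMIs (0%), where 0 of 21 allows a share of up to 14.3%. The neuron-like cluster had the endocrine pattern, with 0 of 25 and 0 of 100 UMIs for the 29-base version, which allow up to 12 and 3%, and 17.6 and 17.7% for the 33-base exon.

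**Figure D4:**
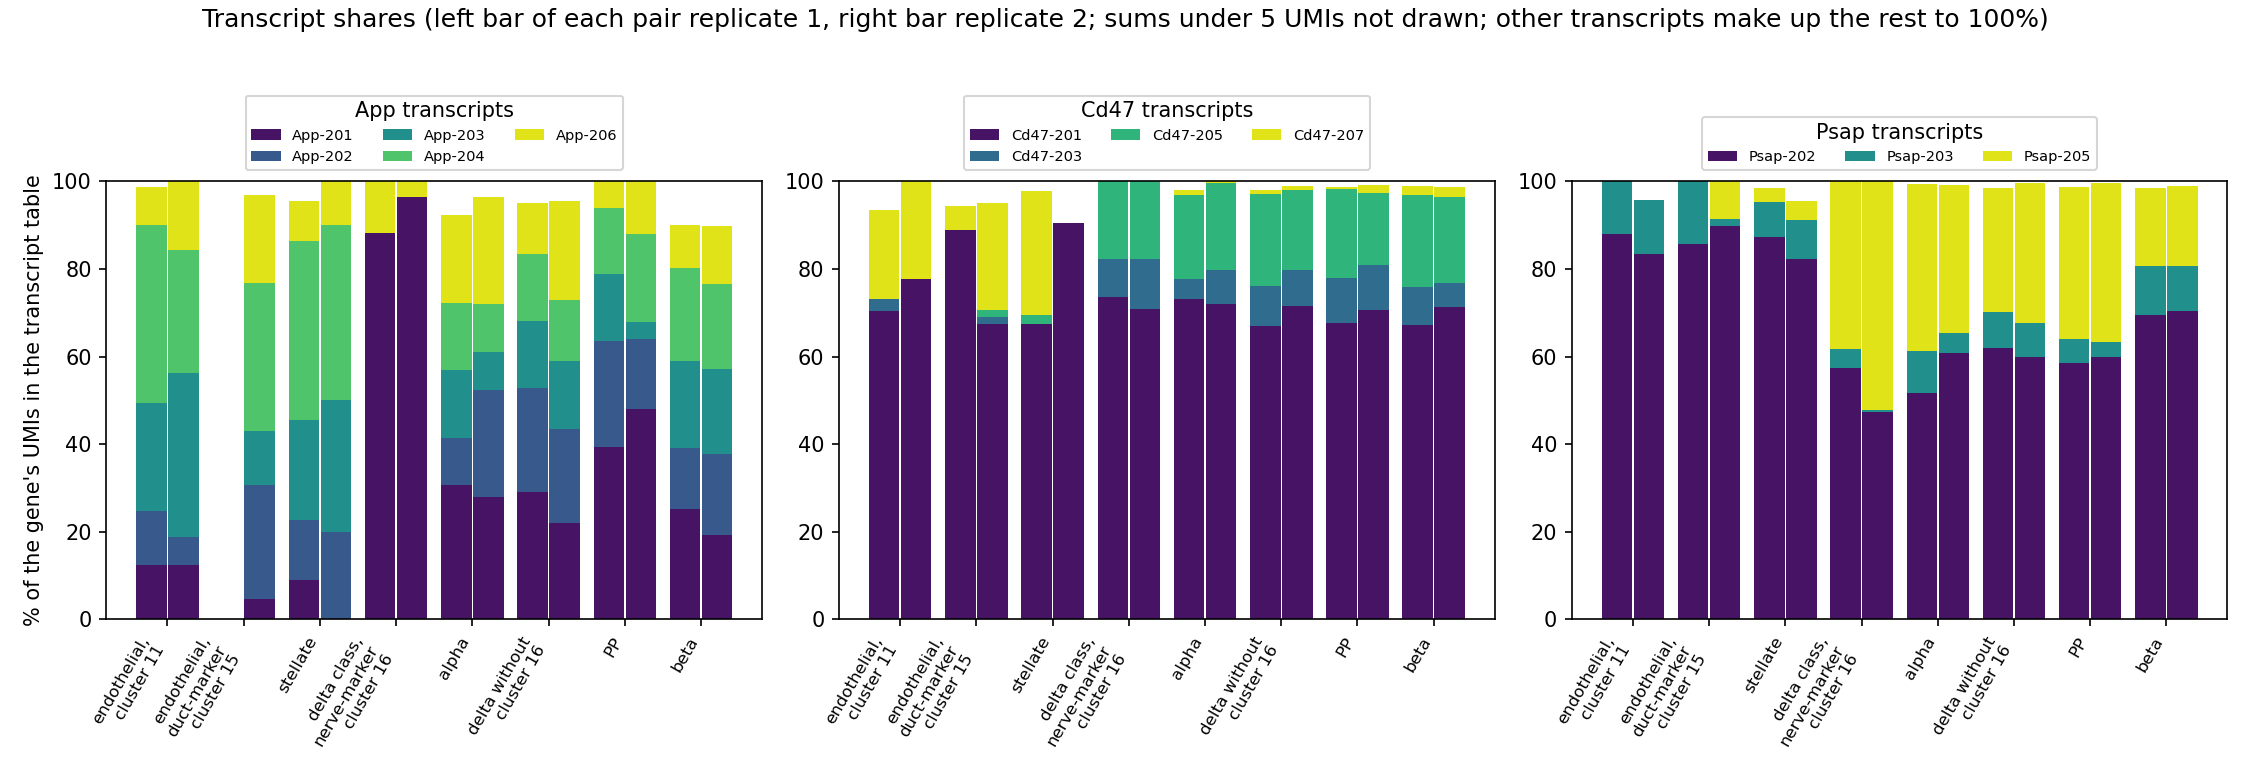
Share of each annotated transcript (% of the gene's UMIs in the transcript table) for App, Cd47 and Psap, with replicate 1 as the left and replicate 2 as the right bar of each pair. App-204 leads in endothelial cluster 11 of replicate 1, App-201 fills most of cluster 16, Cd47-205 is drawn in every endocrine group and Psap-205 has no UMI in endothelial cluster 11.

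The 63-base exon of Cd47 (chr16:49869018-49869080, exon 3 of Cd47-203) showed no such split. It was in 73 of 96 UMIs (76.04%) and 107 of 150 UMIs (71.3%) in endothelial cells and 666 of 870 UMIs (76.6%) and 449 of 580 UMIs (77.4%) in beta cells, and the alpha, delta and PP types lay between 77.0 and 81.0%. Its difference between the endothelial class and the endocrine mean, -4.78 ± 4.96 percentage points, was smaller than the spread between libraries. In the annotation both Cd47-205 and Cd47-207 lack this exon, so its share sums over tails that differed in opposite directions.

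The 9-base exon of Psap was nearly absent outside endocrine cells. Endothelial cells included it in 0 of 57 UMIs (0%) and 5 of 83 UMIs (6.02%), stellate cells in 2 of 63 UMIs (3.17%) and 2 of 45 UMIs (4.44%) and macrophages in 9 of 177 UMIs (5.08%, interval 2.35 to 9.43%) and 6 of 124 UMIs (4.84%, interval 1.80 to 10.2%). All 5 endothelial UMIs with the exon lay in the duct-marker cluster, and cluster 11 had 0 of 50 and 0 of 24, which allow shares of up to 6.0 and 12.5%. Alpha cells included the exon in 55 of 145 UMIs (37.9%, interval 30.01 to 46.4%) and 119 of 353 UMIs (33.7%, interval 28.8 to 38.9%), the delta class in 146 of 501 UMIs (29.1%) and 432 of 1199 UMIs (36.03%) and PP cells in 88 of 253 UMIs (34.8%) and 78 of 215 UMIs (36.3%). Beta cells were lower than these in both libraries, at 316 of 1772 UMIs (17.8%, interval 16.1 to 19.7%) and 204 of 1109 UMIs (18.4%, interval 16.2 to 20.8%), while having the highest Psap level of the endocrine types. The mean of alpha, delta and PP cells exceeded beta cells by 16.5 ± 0.584 percentage points (SD over n = 2 libraries).

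Within the delta class the Psap exon varied by cluster. The neuron-like cluster included it in 18 of 47 UMIs (38.3%) and 126 of 241 UMIs (52.3%), and cluster 12, whose alpha markers (148976 and 93101 CPM) exceeded its delta markers (75882 and 57052 CPM), in 14 of 26 UMIs (53.8%) and 69 of 163 UMIs (42.3%). Cluster 3, the largest delta cluster, had 63 of 228 UMIs (27.6%) and 144 of 424 UMIs (33.96%), and cluster 8 41 of 147 UMIs (27.9%) and 71 of 307 UMIs (23.1%). Clusters 7 and 14 had fewer than 50 spanning UMIs in each library, with 9 of 45 UMIs (20%) and 6 of 19 UMIs (31.6%) in cluster 7 and 1 of 8 UMIs (12.5%) and 16 of 45 UMIs (35.6%) in cluster 14, and the class without cluster 16 had 28.2 and 31.9%. Beta clusters 0, 2 and 4 ranged between 14.2 and 21.8%, and cluster 5, named beta and holding PP markers at 10437 and 28297 CPM, had 61 of 270 UMIs (22.6%) and 54 of 213 UMIs (25.4%). Forms with another first exon, Psap-203, made up 12.3 and 4.82% of endothelial and 11.2 and 10.1% of beta Psap with ranges that overlapped.

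Both choices were often seen in a single cell. Among cells with at least 2 UMIs spanning the Psap exon, 11 of 15 and 58 of 92 alpha cells, 49 of 105 and 149 of 210 delta cells, 37 of 64 and 31 of 38 PP cells and 143 of 419 and 136 of 259 beta cells held molecules with and without it. For the Kunitz exon of App, 7 of 21 and 6 of 20 endothelial cells held both forms, and for the 33-base exon of Cd47, 48 of 154 and 61 of 159 beta cells did. These counts rise with depth, and replicate 2 has more UMIs per cell, so they are not compared between types.

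Genes that act on or with these proteins were taken from 5 lists of 96 genes in all: secretases, App adaptors and carriers, Cd47 partners, saposin and lysosome genes, and splicing regulators. UMIs were summed per type and library and tested with edgeR's quasi-likelihood test over 13265 genes, of which 91 were on the lists, with Benjamini-Hochberg adjustment over all genes. Because the cell types are clusters of the same genes, these tests are circular in part. In endothelial cells 14 listed genes were higher and 17 lower than in the mean of the endocrine types, against a background of 17.9% of all genes higher and 15% lower (32.9% in all), and without TMM scaling the listed genes split 23 higher and 12 lower. Of the 5 members, 4 are among the genes called, a count fixed by how they were picked. In stellate cells 12 listed genes were higher and 7 lower, against 10.2 and 6.47% of all genes (16.7% in all), and 15 and 4 without TMM scaling. Fold changes below are to be read against all-gene medians of -0.11 (endothelial) and -0.26 (stellate) on the log2 scale, and without TMM scaling these medians were 0.22 and 0.02. With the own-marker clusters, a choice that drops the duct-marker and neuron-like clusters among others, 12 listed genes were higher and 19 lower in endothelial cells.

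Among the 12 secretase genes, endothelial cells had 1 higher and 2 lower, against 17.9 and 15% of all genes. Adam10, the main alpha-secretase, was at 75.3 ± 70.5 against 19.4 ± 1.08 CPM (mean ± SD, n = 2 each; log2 fold change 1.51, SE 0.38, adjusted p = 0.00252). Bace2, a beta-secretase relative known in beta cells, was at 51.7 ± 29.04 against 176 ± 7.29 CPM (log2 fold change -1.10, adjusted p = 0.0273), and the gamma-secretase subunit gene Ncstn at 59.3 ± 36.2 against 89.1 ± 22.2 CPM (-0.81, adjusted p = 0.0236). Bace2 was not called by DESeq2, without TMM scaling, without the library as a block or without the highest doublet scores, and in the own-marker clusters its log2 fold change turned to 0.05. Ncstn was not called without TMM scaling or without the library as a block. In stellate cells 1 of 12 was lower, against 6.47% of all genes. This was the gamma-secretase subunit gene Psenen, at 105 ± 7.77 against 196 ± 69.97 CPM (log2 fold change -1.10, SE 0.31, adjusted p = 0.012). It was not called without TMM scaling or without the library as a block.

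App adaptors and carriers were the list with the most endothelial rises, 8 of 17 tested with 2 lower and a median log2 fold change of 1.17, against -0.11 over all genes. Of all genes, 17.9% were higher and 15% lower. Apoe, the lipid carrier, was at 2694 ± 2462 against 8.03 ± 0.771 CPM (log2 fold change 8.03, SE 0.33, adjusted p = 6.37e-18) and Itm2a, of the family of App-binding BRI2, at 80.1 ± 77.3 against 0.709 ± 0.685 CPM (log2 fold change 6.66, SE 0.56, adjusted p = 7.8e-11). Clu, the chaperone clusterin, was at 7339 ± 6458 against 397 ± 27.1 CPM (log2 fold change 4.42, SE 0.28, adjusted p = 1.77e-13), but in the own-marker clusters its log2 fold change was 0.04 and it was not called. In stellate cells 5 were higher and 2 lower, against 10.2 and 6.47% of all genes, with a median of 0.31. Apoe reached 8813 ± 2002 against 8.03 ± 0.771 CPM and Itm2a 191 ± 142 against 0.709 ± 0.685 CPM, and Lrp1, a receptor that takes up App and Apoe, 237 ± 164 against 17.96 ± 0.963 CPM (log2 fold changes 9.94, 8.07 and 3.89, adjusted p at most 4.54e-10).

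Of 10 Cd47 partners tested, 1 was higher and 2 lower in endothelial cells, against 17.9 and 15% of all genes. Thbs1, the thrombospondin that binds Cd47, was at 193 ± 156 against 2.65 ± 0.795 CPM (log2 fold change 6.65, SE 0.40, adjusted p = 5.51e-14). Ubqln2, a ubiquilin, was at 31.6 ± 16.6 against 86.3 ± 18.8 CPM (log2 fold change -1.83, SE 0.32, adjusted p = 4.13e-05) and Thbs3 at 1.42 ± 2.00 against 14.5 ± 0.166 CPM (-3.13, adjusted p = 0.0154), the last not called by DESeq2 or in the own-marker clusters. In stellate cells Thbs1 was at 38.4 ± 54.3 against 2.65 ± 0.795 CPM (4.49, adjusted p = 0.000234) and the integrin gene Itga2 at 29.03 ± 30.2 against 1.77 ± 0.408 CPM (5.13, adjusted p = 0.00354). Qpctl, whose enzyme modifies Cd47 for Sirpa binding, had 0 UMIs in stellate cells against 16.4 ± 0.463 CPM in the endocrine types (adjusted p = 0.0392). It was not called by DESeq2, without TMM scaling or without the highest doublet scores.

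Of 23 saposin and lysosome genes, 2 were higher and 1 lower in endothelial cells, against 17.9 and 15% of all genes. Grn, the progranulin gene whose product binds prosaposin, was at 208 ± 21.96 against 47.9 ± 5.39 CPM (log2 fold change 1.87, SE 0.21, adjusted p = 3.12e-08) and at 146 ± 21.4 against 47.9 ± 5.39 CPM in the stellate comparison (log2 fold change 1.43, SE 0.32, adjusted p = 0.00132). Scarb2, the lysosomal receptor of glucocerebrosidase, was at 136 ± 35.8 against 57.1 ± 4.15 CPM (1.04, adjusted p = 0.00072) and Hexa, a hexosaminidase subunit, at 73.05 ± 19.2 against 122 ± 11.3 CPM (-1.07, adjusted p = 0.00187), and neither was called in the own-marker clusters. Stellate cells had 3 higher and none lower, against 10.2 and 6.47% of all genes. One of the 3 was the protease gene Ctsl at 689.8 ± 491 against 319 ± 13.03 CPM (0.82, adjusted p = 0.0246), which was not called without the library as a block. Another was Gpr37l1, a receptor for prosaposin, at 7.68 and 302.3 CPM with 0 UMIs in endocrine cells (adjusted p = 8.05e-10), and DESeq2 did not call it. Schwann-cell markers summed to 15.4 and 967 CPM in the same stellate sums, and their part in this call was not tested.

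Of 29 splicing regulators tested, 10 were lower and 2 higher in endothelial cells, against 15 and 17.9% of all genes, with a median log2 fold change of -0.93. The 3 with the smallest adjusted p were genes best known in neurons. Celf3 was at 8.64 ± 8.21 against 112 ± 1.80 CPM (log2 fold change -4.24, SE 0.48, adjusted p = 2.47e-08), Celf4 at 3.82 ± 1.40 against 83.5 ± 1.78 CPM (log2 fold change -4.82, SE 0.53, adjusted p = 1.45e-08) and Elavl4 at 1.42 ± 2.00 against 65.1 ± 4.88 CPM (log2 fold change -5.36, SE 0.67, adjusted p = 1.91e-07). In stellate cells 2 were higher and 3 lower, against 10.2 and 6.47% of all genes (16.7% in all), with a median of -0.93. Qk, the quaking gene, was at 125 ± 79.4 against 11.8 ± 1.61 CPM (3.17, adjusted p = 9.87e-06), Celf2 at 138 ± 66.2 against 33.5 ± 1.86 CPM (1.80, adjusted p = 0.000262) and Celf3 at 24.00 ± 23.1 against 112 ± 1.80 CPM (-2.60, adjusted p = 0.00034). Isoform usage of endothelial and stellate against endocrine cells was tested with edgeR's diffSpliceDGE over 6738 genes, of which 0.965% were called. With edgeR, 0 of 47 listed genes were called. Before adjustment 2 of the 47 were below 0.05, Hnrnpa1 (edgeR adjusted p = 0.128) and Rbfox2 (edgeR adjusted p = 0.388).

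**Figure D5:**
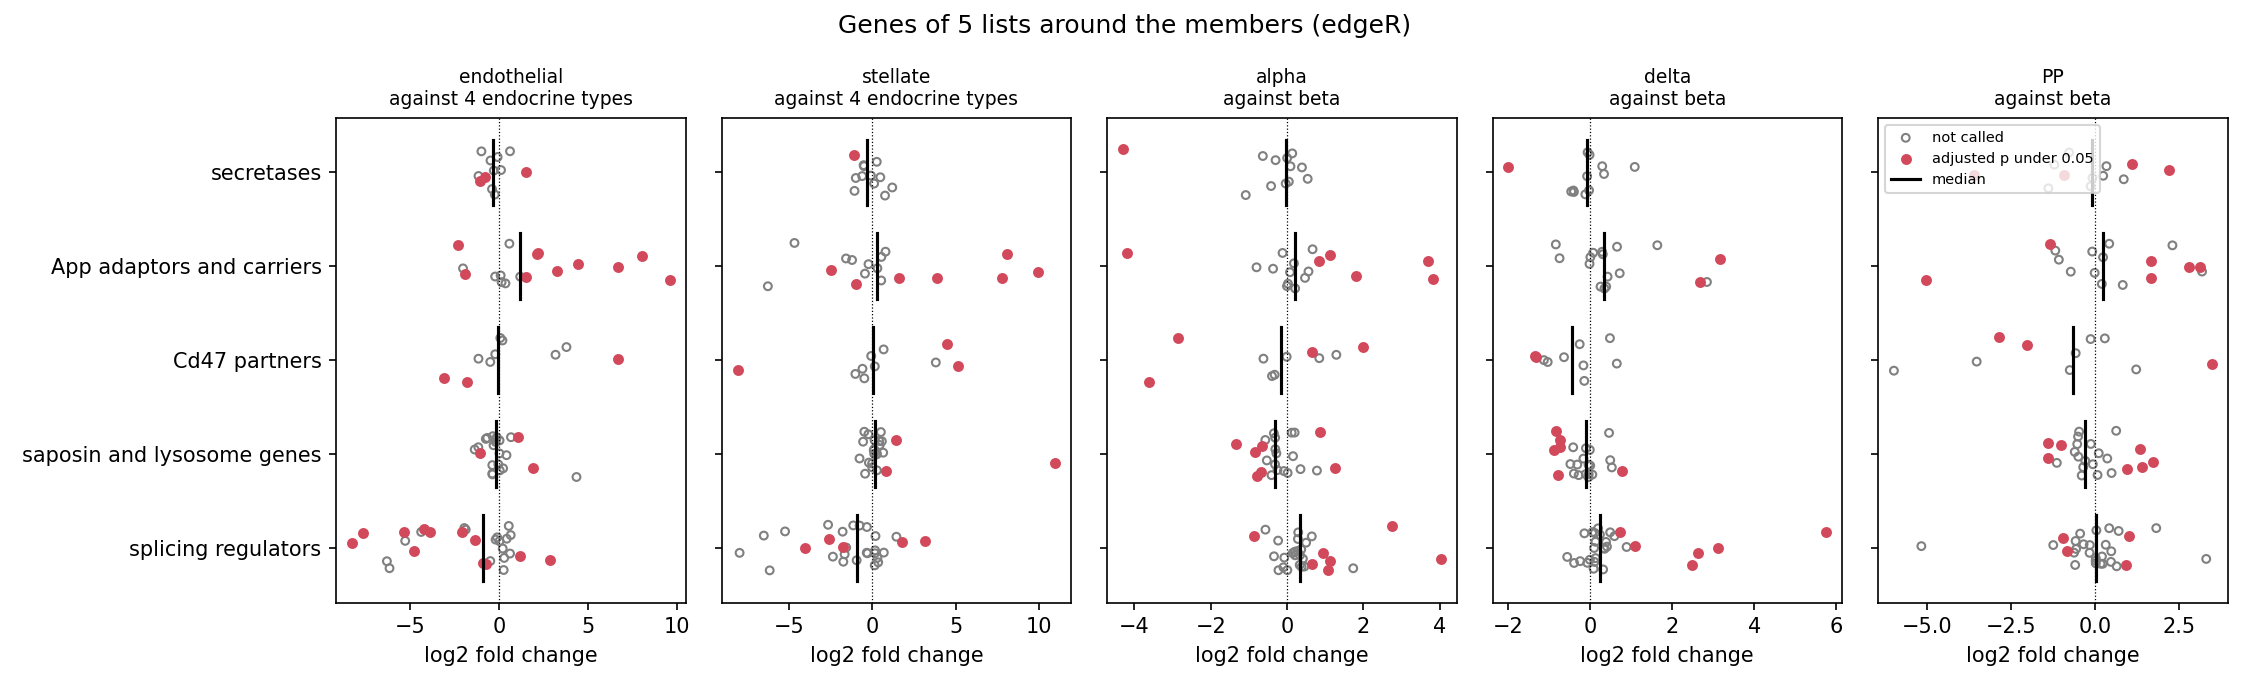
Log2 fold change of each tested gene of 5 lists in 5 comparisons of cell types, with filled points for an edgeR adjusted p under 0.05 and a black line at the list's median. App adaptors and carriers have a median of 1.17 and splicing regulators of -0.93 in endothelial against endocrine cells, with 8 and 2 members called higher and 2 and 10 called lower. Of all genes, 17.9% are called higher and 15% lower.

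Among endocrine cells, 25 listed genes were called between alpha and beta cells (15 higher in alpha, 10 lower), against 9.13 and 9.91% of all genes (19% in all). Without the library block 11 genes were called. Without TMM scaling 7 were higher and 27 lower, and the all-gene median was -0.39, against 0.02 with it. The largest of these differences among secretases was Bace2, at 19.6 ± 14.4 against 523 ± 36.6 CPM for alpha against beta cells (log2 fold change -4.30, SE 0.32, adjusted p = 2.77e-11), and it was also lower in delta (129 ± 13.4 against 523 ± 36.6 CPM, -1.99, adjusted p = 2.58e-06) and PP cells (33.02 ± 6.50 against 523 ± 36.6 CPM, -3.61, adjusted p = 4.5e-09). Sirpa, the receptor that reads Cd47, was at 9.05 ± 3.92 against 88.9 ± 9.33 CPM in alpha against beta cells (log2 fold change -2.85, SE 0.32, adjusted p = 5.75e-08) and at 9.28 ± 0.753 against 88.9 ± 9.33 CPM for PP against beta cells (-2.85, adjusted p = 8.25e-06). Lrp1 was higher in alpha cells at 27.04 ± 1.99 against 2.70 ± 0.597 CPM (3.70, adjusted p = 9.67e-09), and the App sorting receptor gene Sorl1 lower at 1.09 ± 1.55 against 30.4 ± 8.77 CPM (-4.19, adjusted p = 9.03e-07). The acid ceramidase gene Asah1, whose enzyme needs a saposin, was lower at 45.6 ± 3.02 against 156 ± 18.5 CPM (-1.35, adjusted p = 3.59e-05).

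The delta class had 17 called genes (9 higher, 8 lower than in beta cells), against 8.78 and 5.01% of all genes (13.8%), and PP cells had 24 (13 higher, 11 lower), against 8.89 and 8.43% (17.3%). Without the library block 9 were called for delta and 11 for PP cells. Without the neuron-like cluster the delta class had 5 higher and 9 lower, against 919 higher and 620 lower of 13185 genes. With the own-marker clusters, 11 of 84 listed genes were higher and 13 lower in delta than in beta cells, against 1314 higher and 1239 lower of 11836 genes. Without TMM scaling PP cells had 8 higher and 29 lower, and the all-gene median was -0.42, against -0.03 with it. Clu was higher in both, at 755 ± 12.4 against 121 ± 16.7 CPM in the delta and 628 ± 69.2 against 121 ± 16.7 CPM in the PP comparison (log2 fold changes 2.67 and 2.78, adjusted p = 1.78e-05 and 1.28e-05). Lamp1, a lysosomal membrane protein, was lower in both, at 124 ± 9.06 against 234 ± 17.8 CPM and 66.1 ± 5.54 against 234 ± 17.8 CPM (-0.88 and -1.41, adjusted p = 0.00227 and 5.27e-05). Its delta call was lost without the library block. Of the 29 splicing regulators, 6 were higher and none lower in the delta class, led by Rbfox1 at 14.3 ± 5.46 against 0.206 ± 0.0313 CPM (5.75, adjusted p = 1.14e-06), Elavl2 at 14.9 ± 3.26 against 1.72 ± 0.171 CPM (3.12, adjusted p = 1.29e-05) and Khdrbs2 at 10.8 ± 1.79 against 1.83 ± 1.28 CPM (2.63, adjusted p = 0.000606). The neuron-like cluster held 22 and 76 UMIs of Rbfox1, which without it did not pass the filter on low counts. Then 2 of 28 splicing regulators were higher, Khdrbs2 among them, against 919 of 13185 genes. Without that cluster Elavl2 had an edgeR log2 fold change of 0.73 and an adjusted p of 0.61, and with types taken from the transcript clusters it turned to -1.34.

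Over the 12 sums of 6 types in 2 libraries, which share their library, the genes whose log2 CPM was most like each member among 12199 compared were listed by Pearson correlation, as a description with no p. For App they were Dock1 (0.976), Smco4 (0.967), St6galnac2 (0.963), led by a regulator of the cytoskeleton. For Aplp1 they were Txnrd1 (0.993), Zcchc18 (0.988), Scg5 (0.979), which include a thioredoxin reductase and the chaperone of a prohormone convertase. For Aplp2 they were Cav2 (0.976), Wwc2 (0.968), Samd4 (0.968), led by a caveolin. For Cd47 they were Shisa5 (0.984), Cldnd1 (0.965), Emd (0.955) and for Psap Oxct1 (0.923), Pip5k1b (0.91), Oas2 (0.908), which include the nuclear-envelope gene Emd and the ketone-body enzyme gene Oxct1. Among the members themselves, the correlation was 0.89 between App and Aplp2, 0.83 between App and Cd47 and -0.80 between App and Aplp1.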

How the data were processed

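Deposited by the authors were raw UMI counts of genes and of annotated transcripts in each cell, with cluster and type names for the cells. The submitters' processing notes name the build mm10 and Seurat. Aligner, counter and use of strand are not given in the sources used here. Members and gene lists were chosen with earlier results of these data known.

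Barcodes without a type name were dropped, which left 4814 of 6395 and 1093 of 2124. Transcripts were joined to GENCODE M21. An exon was called optional where transcripts with at least 5% of their gene's UMIs, in a sum of at least 30 UMIs, differed in it. Counts were added up by type within each library. The 6 types with 20 or more cells per library entered a single fit in edgeR 4.0.16 (R 4.3.3; TMM, filterByExpr, quasi-likelihood test, false discovery rate 0.05). Each library gives every type, so same-numbered sums are paired and the library is a block, which leaves 5 residual degrees of freedom. Macrophages (62 and 7 cells) were not tested. Isoform usage was tested with diffSpliceDGE on transcripts with at least 10 UMIs and 5% of the gene. Scrublet (scanpy 1.11.5) called 6 and 13 cells as doublets, so an alternative dropped the highest 6% of scores (289 and 66 cells). DESeq2 1.42.0 was another alternative. Scripts were tested on simulated data. Named genes were the members, up to 3 called genes per list and comparison by adjusted p, of which some are not printed, and the 3 genes most correlated with each member.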

Additional observations from a re-analysis of the deposited data

How the results depend on the processing

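Of the counts of called list genes, 41 of 46 alternatives stayed within 1.5 times. The library pairs the sums, and without this replicate block 11 list genes were called for alpha (25 with it), 9 for delta (17) and 11 for PP cells (24), and 16 of 67 gene calls were lost. Types taken from transcript clusters gave 11 for delta cells, and no TMM scaling gave 37 for PP cells. With the own-marker clusters, endothelial minus endocrine inclusion was 19.0 points for the App 168-base exon, 11.6 for the 57-base exon and -44.1 for the Aplp2 168-base exon, and Psap in alpha, delta and PP minus beta cells was 17.2 points. The Aplp2 value was -25.7 with all UMIs of the gene as denominator and -38.0 without cluster 16, an alternative chosen after seeing the data. Psap was 15.7 without cluster 16 and 12.2 with transcript clusters.

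The log2 ratio of endothelial to endocrine levels was 2.36 for App, 2.39 for Aplp2 and 1.09 for Cd47 with TMM (2.67, 2.75 and 1.43 without). Aplp2 gave 2.71 with transcript sums, 2.72 with transcript clusters, 2.92 with own-marker clusters, 2.71 without high doublet scores and 2.80 without cluster 16. Cd47 gave 1.51 with transcript sums and 1.52 with own-marker clusters. Psap, at -0.26, turned to 0.12 with transcript sums and 0.10 with own-marker clusters, and lay between -0.58 and 0.058 when either replicate was left out. Of the named genes, Bace2 in endothelial cells turned to 0.051 with own-marker clusters and Elavl2 in delta cells to -1.34 with transcript clusters. The cause was not tested in any of these cases. With 2 libraries, leaving out either leaves no residual degrees of freedom for the gene and usage tests, so these have no such value. Depth limits Aplp2, App in PP and stellate cells, and all macrophage shares.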
